A study of Mus musculus with 8 samples.

Results

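The transcripts described here are the 12894 genes not classed as immunoglobulin genes that could be compared between pre-proB cells lacking Erg and control pre-proB cells. They were chosen by a fixed rule, at least 0.5 CPM (counts scaled to library size) in at least 2 of the 4 pre-proB libraries. Heavy chain and kappa segments and constant genes, and lambda variable and constant genes, were left out by symbol. Lambda joining genes were not part of that rule, and 287 tested identifiers without a symbol could not be screened by it. The count table holds 27179 identifiers, of which 26922 are not immunoglobulin genes, and 14028 of those lay below the limit. Bone marrow was taken from mice of 7 to 10 weeks. The control mice were Erg fl/fl, with both Erg alleles flanked by recombination sites and no Rag1Cre allele. The deficient mice were Rag1Cre T/+;Erg Δ/Δ, in which the Cre recombinase is active from the common lymphoid progenitor onwards and both Erg alleles are deleted. Since no control library carried Rag1Cre, an effect of the Cre allele and one of the Erg deletion cannot be told apart in these RNA data. The paper reports normal lymphoid development in Rag1Cre T/+ mice, measured by flow cytometry and not by RNA. Each genotype gave 2 independently sorted pre-proB libraries, and the other 4 of the 8 libraries were made from control proB and preB cells. The pre-proB gate included B220+ IgM- IgD- NK1.1- CD11c- CD43+ CD24-.

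Erg is a transcription factor of the ETS family, whose members bind DNA around a GGAA core and act in blood stem cells, megakaryocytes and early lymphocytes. Pre-proB cells are the earliest bone marrow cells on the path to B cells. They carry B220 at the surface, have begun to rearrange the heavy chain locus and, once Ebf1 and Pax5 are active, take on the B lineage programme and close off the routes to natural killer (NK), T and myeloid cells. In sorted bulk RNA, fewer cells of one type and less RNA per cell cannot be told apart.

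The 4 pre-proB libraries held between 15565381 and 16958979 counts, so that 3 counts corresponded to between 0.181 and 0.194 CPM. Every library held Xist (580 to 1108 CPM) together with 4 transcripts of the Y chromosome, such as Ddx3y at 96.5 to 135 CPM. The study's methods state that the populations were sorted separately from 2 mice of each genotype. Female and male RNA in 1 library is not what 1 mouse per library would give, and pooling was not stated. It is therefore uncertain whether replicates were separate mice, and the p-values measure only the spread between these libraries. Erg itself (chromosome 16) stood at 69.8 and 25.1 CPM in the control libraries and at 2.49 and 2.58 CPM in the deficient ones, a mean of 5.33% of the control level. The pre-proB markers cannot by themselves bear out the labelled cell type, since Bst2, Ly6d and Ly6c2 are also in the plasmacytoid dendritic list below. Of 10 pre-proB markers 0 were called by edgeR and 1 by DESeq2, and 5 had an unadjusted p below 0.05 in edgeR. Of these 5, Cd93, Dntt and Kit kept 62.8%, 58.7% and 78.0% of the control mean, and Ly6c2 and Ly6d stood at 129% and 119%. The list summed to 6644 and 6861 CPM in the controls and to 7213 and 7305 CPM in the deficient libraries. Of 10 proB markers 8 were called lower. Plasmacytoid dendritic cell markers, several of which early lymphoid cells share, summed to 18038 and 19393 CPM in the controls and to 20987 and 21261 CPM in the deficient libraries. All 14 had a log2 fold change above 0 (median 0.17), 5 had an unadjusted p below 0.05, 0 were called by edgeR and 2 were called by DESeq2. In control proB libraries this list summed to 1477 and 1473 CPM and the pre-proB list to 2867 and 2922 CPM. Siglech, a dendritic marker, stood at 3892 and 3794 CPM in control and 3930 and 4495 CPM in deficient pre-proB libraries. It was at 46.9 and 57.4 CPM in control proB libraries. Spib fell less, from 1315 and 1379 CPM in control pre-proB to 802 and 718 CPM in control proB libraries. The part of plasmacytoid dendritic cells in these values was not tested.

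Between the genotypes 113 of the 12894 genes differed at an adjusted p below 0.05 in the quasi-likelihood F-test of edgeR, adjusted by the Benjamini-Hochberg method, 0.876% of those tested. Of these, 85 were lower in the deficient cells (0.659%) and 28 higher (0.217%). The libraries of the genotypes did not overlap for any of the 113. Non-overlap alone is common here, since 21.4% of all tested genes lay wholly lower and 23.5% wholly higher in the deficient libraries. The lower genes had a median of 15.5 CPM in control and 0.536 CPM in deficient cells, and 54 of the 85 kept under 10% of the control mean. The higher genes rose from a median of 5.20 to 23.7 CPM, and 14 of the 28 were at least 4-fold up. Across the 12894 genes together the median of the log2 fold change was 0.01. Of the 85 lower genes, 15 belong to the 26 B cell genes that the study names, a list chosen with these libraries in hand, and they are not described further. Of the other 68 lower and 27 higher genes with a symbol, 68 and 26 are described below by function, and 2 lower and 1 higher identifiers had no symbol. Each count of called list members below is to be set beside the 0.659% of all tested genes called lower and the 0.217% called higher. The lists were written with earlier results of these data known, so a count above these shares was not tested. The counts depended on single libraries. When a control library was left out and the CPM minimum reapplied, 40 of the 113 genes could not be tested. Fits that held the tested genes fixed were therefore added after seeing the data, and the leave-out counts given by function below come from them unless stated. In these fits 176 genes were called without Erg fl/fl replicate 1, 537 without Erg fl/fl replicate 2, 11 without Rag1Cre;Erg-deficient replicate 1 and 3 without Rag1Cre;Erg-deficient replicate 2, in the last 2 of which the spread rested on the 2 controls. The direction of each of the 113 genes held in every such fit. The fixed-gene fits kept genes that had passed the minimum only through the library left out. Without a control library, the spread rested on the 2 deficient libraries. In these, 19 of the 85 lower genes had at most 3 counts over both. A lower gene that stayed called without a control library therefore gains no independent support from it.

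**Figure D1:**
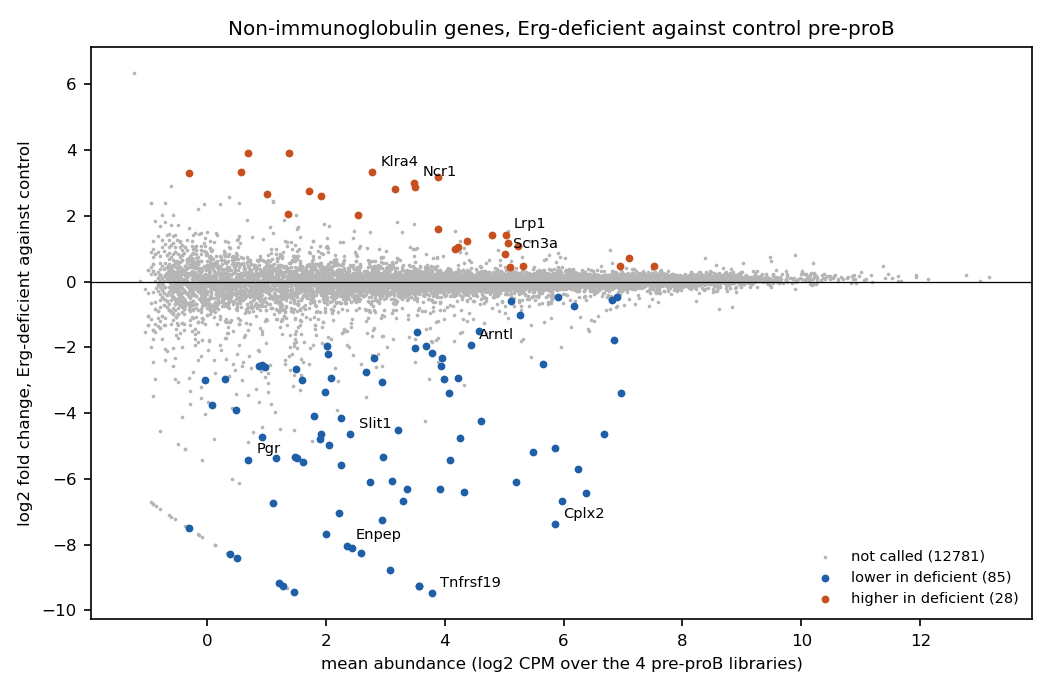
Log2 fold change of each non-immunoglobulin gene (y axis) against its mean abundance in log2 CPM over the 4 pre-proB libraries (x axis), with the 85 called lower genes in blue, the 28 called higher genes in orange and all others in grey. The lower genes reach a fitted value of -9.48, the higher ones 3.92. The fitted fold of genes with few or no counts in the deficient libraries depends on the prior count.

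The control libraries differed from each other in the genes that fell. For 84 of the 85 lower genes control replicate 1 held more than control replicate 2, with a median ratio of 2.27 (lowest 0.906, highest 4.11). A ratio of at least 1.5 was found for 67 of the 85 genes, or 78.8%, against 5.38% of all tested genes. The 28 higher genes had a median ratio of 0.907, and 1 of them reached 1.5. Between the deficient libraries the median ratio was 0.934 for the lower and 0.733 for the higher genes, replicate 2 exceeding replicate 1 for 23 of the 28 higher genes. Whether this spread had a part in the calls beyond the fits without each library was not tested.

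**Figure D2:**
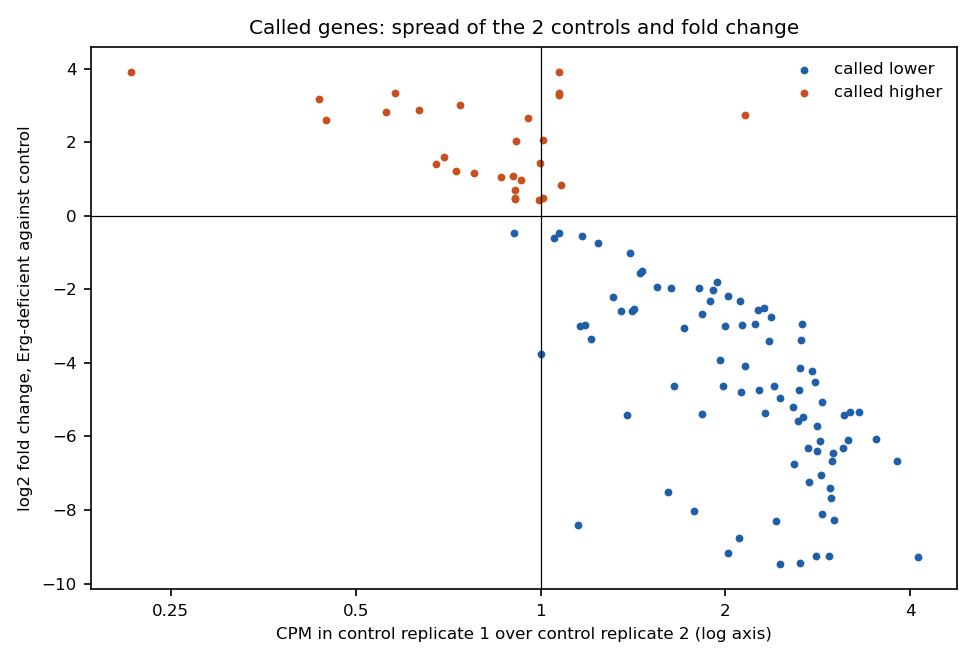
Log2 fold change of the 113 called genes (y axis) against the ratio of CPM in control replicate 1 to control replicate 2 (x axis, logarithmic), lower genes in blue and higher genes in orange. Most lower genes lie to the right of 1, with a median ratio of 2.27, and the higher genes have a median of 0.907.

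Among the lower genes with the lowest p-values were molecules of the cell surface. Enpep, the aminopeptidase that carries the BP-1 antigen of early B cells, stood at 13.2 and 7.42 CPM in control and at 0.0621 and 0 CPM in deficient libraries. These values rest on 327 counts against 1, a ratio of 323 with an exact 95% counting interval of 57.6 to 12793. Tnfrsf19, a receptor of the tumour necrosis factor family also called Troy, fell from 39.8 and 16.3 CPM to 0.0621 and 0 CPM, or 885 counts against 1, a ratio of 874 (156 to 34557). Both genes were therefore all but absent from both deficient libraries while clearly read in both controls.

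Other receptors fell as well, and of 63 receptors of cytokines and the TNF family 2 were called lower and 1 higher, with a list median of 0.08. Ifnlr1, the specific chain of the interferon lambda receptor, had 133 counts in control and 1 in deficient cells, a ratio of 131 (23.2 to 5226). Adgrg1, an adhesion G protein-coupled receptor, stood at 243 and 125 CPM against 55.2 and 51.4 CPM (log2 fold change -1.79, SE 0.283). Cxcr5, the receptor that draws B cells into follicles, read 7.97 and 4.88 CPM against 1.62 and 1.67 CPM (-1.96, SE 0.313). Within the group of B lineage surface and signalling genes, 5 of 38 tested were called, all lower, against 0.659% of all genes. The list median was -0.18. Besides Enpep and Cxcr5 these were Ms4a1, which encodes CD20 and fell from 7.90 and 6.51 to 0.249 and 1.16 CPM, Fcrl6, an Fc receptor-like protein that fell from 20.4 and 6.45 to 0.124 and 0.258 CPM, and Dok3, an inhibitory adaptor of B cell receptor signalling that fell from 39 and 18.3 to 3.54 and 3.73 CPM. Several further members lay on the same side without passing the test, such as the tetraspanin Cd81 at 18.7 and 6.45 against 2.36 and 1.74 CPM (adjusted p in edgeR 0.0777). Fcmr, the IgM Fc receptor, was at 7.77 and 5.31 against 1.43 and 2.51 CPM (adjusted p in edgeR 0.0763). Blk, a Src family kinase of B cells, hardly moved, at 89.3 and 84.1 against 68.5 and 73.1 CPM. The 8 called genes of both paragraphs on surface molecules, Dok3 included, stayed called in the fixed-gene fits without either control library, and 0 of them did so without Rag1Cre;Erg-deficient replicate 1 or replicate 2. With the minimum reapplied, 4 of the 8 could be tested without a control library, of which 3 were called without Erg fl/fl replicate 1 and 4 without Erg fl/fl replicate 2.

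The first 4 lower and first 2 higher genes of the ranking by p are given here with the bases around their start sites, to let the windows of genes that moved together be compared. Each is 1 RefSeq promoter window of build GRCm38.p6, the first where more are listed, from 250 bases before to 50 after the start, 5′ to 3′ on the strand of the gene. Capitals mark matches, on either strand, to an ETS motif (CAGGAAGT or CCGGAAGT), an Ebf1 motif (CCCNNGGGA), an E-box (CAGGTG or CAGCTG) or a T-box motif (AGGTGTGA). The windows are those of Enpep (chr3:129332700-129332999, minus strand), Cacna2d1 (chr5:15934441-15934740, plus strand), Tnfrsf19 (chr14:61046806-61047105, minus strand), Pgr (chr9:8899583-8899882, plus strand), Lrp1 (chr10:127621099-127621398, minus strand) and Scand1 (chr2:156312655-156312954, minus strand).
Enpep: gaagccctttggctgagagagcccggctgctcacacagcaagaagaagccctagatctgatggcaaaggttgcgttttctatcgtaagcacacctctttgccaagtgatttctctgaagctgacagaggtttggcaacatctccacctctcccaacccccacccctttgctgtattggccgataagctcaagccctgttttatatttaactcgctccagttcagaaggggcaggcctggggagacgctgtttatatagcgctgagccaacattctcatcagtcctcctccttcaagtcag
Cacna2d1: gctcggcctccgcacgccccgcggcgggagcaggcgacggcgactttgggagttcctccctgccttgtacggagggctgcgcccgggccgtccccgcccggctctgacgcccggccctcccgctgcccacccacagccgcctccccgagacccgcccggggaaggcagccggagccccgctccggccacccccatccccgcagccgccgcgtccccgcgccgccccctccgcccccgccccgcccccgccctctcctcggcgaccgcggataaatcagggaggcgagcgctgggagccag
Tnfrsf19: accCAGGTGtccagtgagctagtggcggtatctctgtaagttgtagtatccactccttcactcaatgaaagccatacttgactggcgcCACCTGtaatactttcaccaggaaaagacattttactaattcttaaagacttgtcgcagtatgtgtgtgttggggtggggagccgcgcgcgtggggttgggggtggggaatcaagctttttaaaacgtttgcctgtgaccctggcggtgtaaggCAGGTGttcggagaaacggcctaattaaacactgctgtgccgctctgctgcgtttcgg
Pgr: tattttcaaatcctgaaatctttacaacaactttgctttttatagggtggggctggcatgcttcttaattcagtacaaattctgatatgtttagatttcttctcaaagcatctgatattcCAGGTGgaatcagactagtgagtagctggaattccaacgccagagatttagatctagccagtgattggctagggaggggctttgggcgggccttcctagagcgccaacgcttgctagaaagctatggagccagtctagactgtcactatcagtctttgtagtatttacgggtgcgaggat
Lrp1: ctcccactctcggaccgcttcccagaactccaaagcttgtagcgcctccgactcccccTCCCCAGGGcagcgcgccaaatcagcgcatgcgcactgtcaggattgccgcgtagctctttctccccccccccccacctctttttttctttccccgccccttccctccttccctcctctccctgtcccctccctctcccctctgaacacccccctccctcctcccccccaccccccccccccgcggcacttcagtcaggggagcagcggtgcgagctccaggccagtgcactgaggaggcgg
Scand1: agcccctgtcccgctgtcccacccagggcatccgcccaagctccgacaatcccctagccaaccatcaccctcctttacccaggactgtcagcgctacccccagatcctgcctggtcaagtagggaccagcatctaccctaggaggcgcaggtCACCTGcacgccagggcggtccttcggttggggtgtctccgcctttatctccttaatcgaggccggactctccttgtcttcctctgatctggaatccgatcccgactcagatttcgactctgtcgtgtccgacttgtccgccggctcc
The window of Tnfrsf19 held 3 E-boxes, those of Pgr and Scand1 1 each, that of Lrp1 1 Ebf1 motif, and those of Enpep and Cacna2d1 none of the 4 motifs. Over all windows, an ETS motif was found in 8.33% of 96 windows of 66 lower genes, in 4.17% of 24 windows of 18 higher genes and in 11.5% of 12733 windows of 10049 tested genes. For the Ebf1 motif the shares were 12.5%, 4.17% and 7.74%, for the E-box 31.2%, 25.0% and 30.1%, and for the T-box motif 2.08%, 4.17% and 0.880%. A T-box match was read in 2 lower and 1 higher windows. These matches describe letters in short windows and were not tested.

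Genes better known from the nervous system were a further part of the lower set. In the group of axon guidance molecules and neurotrophic receptors 4 of 39 tested genes were called, all lower, against 0.659% of all genes. The list median was 0.06. Slit1, a secreted ligand of Robo receptors, stood at 13.7 and 6.93 CPM in control and at 0.497 and 0.322 CPM in deficient cells (log2 fold change -4.63, SE 0.472, adjusted p in edgeR 0.0178). Gfra2 and Gfra1 encode the surface co-receptors through which neurturin and GDNF signal. Gfra2 fell from 46.4 and 14.9 CPM to 0.435 and 0.322 CPM (-6.31, SE 0.758), and Gfra1 from 49.5 and 18.6 CPM to 3.85 and 5.02 CPM (-2.94, SE 0.473). Both co-receptors were thus lower, Gfra2 keeping 1.24% of its control mean and Gfra1 standing at 4.44 CPM on average. Reln, a large secreted glycoprotein, was low in both groups at 1.81 and 1.81 against 0.124 and 0.129 CPM, and it was the gene of the 4 whose controls were alike. Robo2, a Slit receptor, lay the other way without passing the test, at 1.88 and 1.99 against 3.73 and 3.67 CPM (adjusted p in edgeR 0.178). All 4 calls held in the fixed-gene fits without either control library, and none without Rag1Cre;Erg-deficient replicate 1 or replicate 2, whereas with the minimum reapplied only 1 of the 4 could be tested without a control library and was called.

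Ion channel genes moved in both directions, 4 of 90 tested being lower and 1 higher, with a list median of -0.04. Cacna2d1, an auxiliary subunit that brings voltage-gated calcium channels to the surface, had 544 counts in control and 1 in deficient cells, or 23.3 and 11.1 against 0.0621 and 0 CPM, a ratio of 537 (96.0 to 21257). Cacna1h, a pore subunit of T-type calcium channels, was at 1.68 and 1.45 against 0.124 and 0.258 CPM. Scn4b, a beta subunit of sodium channels, fell from 31.7 and 8.32 to 0.249 and 0.129 CPM. The pore subunit Scn3a rose instead, from 24.7 and 22.9 to 44.5 and 40.4 CPM (log2 fold change 0.83, SE 0.0860, adjusted p in edgeR 0.0178). Tpcn1, a channel of endosomes and lysosomes, fell by 0.47 on the log2 scale (SE 0.0734), from 68.1 and 75.2 to 51.6 and 52.3 CPM. Fxyd6, a regulator of the sodium pump, had 144 counts in control and 0 in deficient cells, which is at least 47.4-fold lower against 3 counts over both libraries. In the fixed-gene fits Cacna1h was not called without Erg fl/fl replicate 1, and none of the lower genes of this paragraph was called without Rag1Cre;Erg-deficient replicate 1 or replicate 2. With the minimum reapplied, Tpcn1 was the only 1 of the 5 lower genes that could be tested without a control library, and it was not called without Erg fl/fl replicate 2. The range of the adjusted p of Scn3a over its alternatives was 1.28e-05 to 0.131, the highest without Rag1Cre;Erg-deficient replicate 1.

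**Figure D3:**
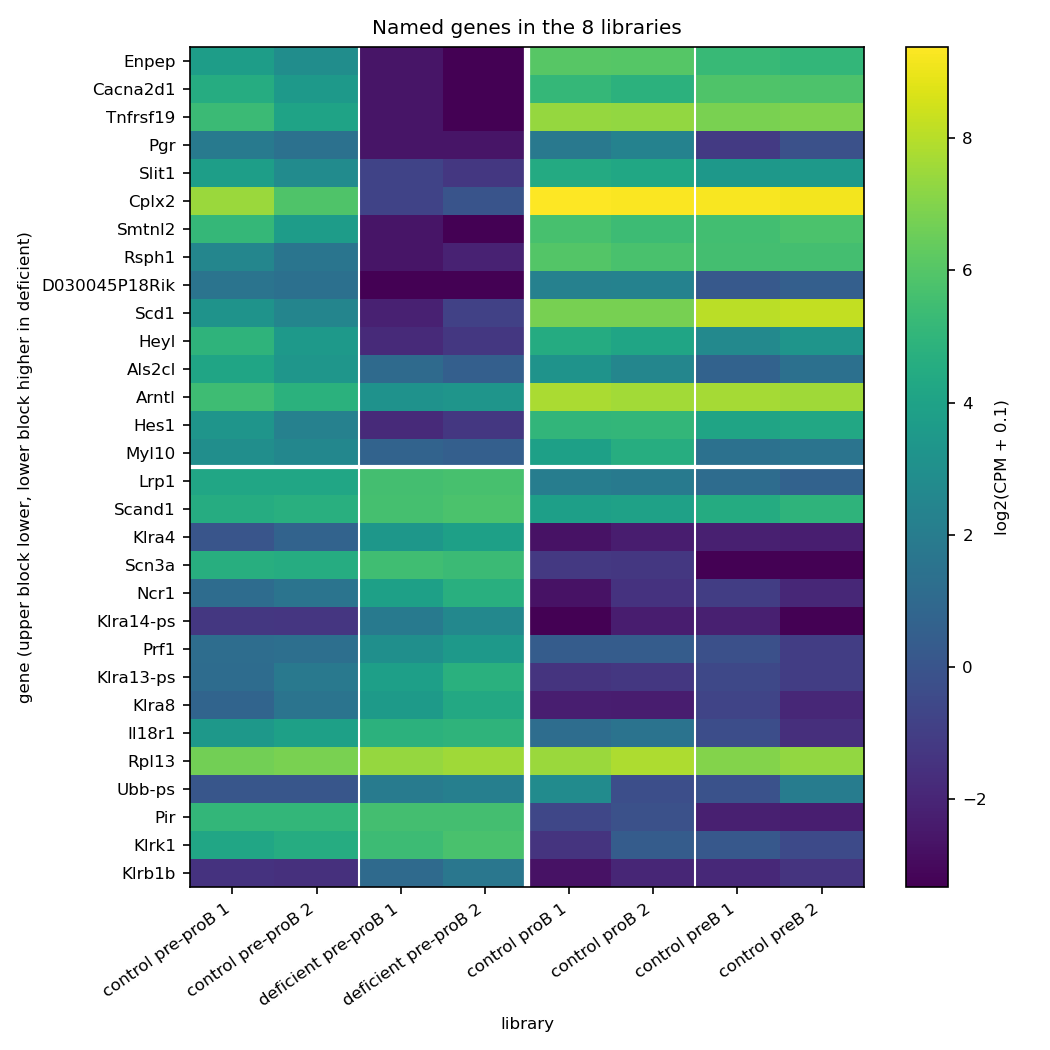
Level of the 15 lower (upper block) and 15 higher (lower block) genes of the naming rule in all 8 libraries, as log2(CPM + 0.1) in colour, genes in rows and libraries in columns, with the 4 pre-proB libraries on the left. The 2 deficient columns are dark for Enpep, Tnfrsf19 and Smtnl2, at or under 0.0621 CPM, and Klra4 is highest in them, at 10.6 and 14.9 CPM.

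Regulators of transcription and of the cell cycle formed the next set. In the Notch pathway 2 of 34 tested genes were called, both lower, and the list median was 0.00. Both are repressors of the Hes and Hey family that Notch signalling induces in many tissues. Heyl stood at 30.3 and 11.2 CPM in control and at 0.186 and 0.322 CPM in deficient cells (log2 fold change -6.32, SE 0.698), and Hes1 at 9.85 and 4.64 against 0.186 and 0.322 CPM (-4.80, SE 0.547). The receptor Notch3 was measured at 42.9 and 44.7 against 51.3 and 58.6 CPM (adjusted p in edgeR 0.167), and Hes5 at 2.46 and 1.81 against 1.12 and 1.16 CPM (0.322 in edgeR). Of 28 nuclear hormone receptors 1 was called, the progesterone receptor Pgr, with 96 counts in control and 2 in deficient cells, a ratio of 47.4 (12.8 to 397). The oestrogen receptor Esr1 was at 13.3 and 6.27 against 3.11 and 3.54 CPM and the thyroid hormone receptor Thrb at 5.76 and 1.93 against 0.249 and 0.322 CPM, and neither passed (adjusted p in edgeR 0.124 and 0.0645).

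Of 17 circadian clock genes 1 was called. Arntl, which encodes BMAL1, the positive limb of the clock, fell from 42.6 and 27.5 to 8.70 and 9.79 CPM (log2 fold change -1.93, SE 0.218, adjusted p in edgeR 0.0188). Its repressors lay closer together, Per1 at 42.9 and 43.0 against 38.5 and 36.8 CPM and Nr1d1 at 3.37 and 2.65 against 1.62 and 1.67 CPM, without a call. Among 48 haematopoietic transcription factors outside those the study names, 2 were lower. The homeobox gene Dlx1 had 150 counts in control and 0 in deficient cells, at least 49.4-fold lower, and Lyl1, a basic helix-loop-helix factor of early blood cells, fell by 0.60 on the log2 scale (SE 0.0970), from 43.6 and 41.6 to 25.7 and 30.6 CPM. Gata3, a factor of T cells and innate lymphoid cells, lay the other way at 0.583 and 0.723 against 2.05 and 2.77 CPM, without passing (adjusted p in edgeR 0.0753).

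Of 69 replication and cell cycle genes 2 were called, both lower, with a list median of -0.11. E2f2, a driver of entry into S phase, was at 61.5 and 43.8 against 25 and 27.0 CPM (log2 fold change -1.02, SE 0.159), and Uhrf1, which maintains DNA methylation at replication, was at 146 and 136 against 105 and 100 CPM (-0.47, SE 0.0686). The phosphatase Cdc25b was at 134 and 73.7 against 36.2 and 43.3 CPM and did not pass (adjusted p in edgeR 0.0741). No member was called higher, and the summed level of the list was 5857 and 6159 CPM in control against 5582 and 5635 CPM in deficient libraries. Of the 8 called regulators from Heyl to Uhrf1, the fixed-gene fits called 6 without Erg fl/fl replicate 1, 8 without Erg fl/fl replicate 2 and 0 without Rag1Cre;Erg-deficient replicate 1 or replicate 2. Without a control library 4 could be tested once the minimum was reapplied, of which 2 were called without Erg fl/fl replicate 1 and 4 without Erg fl/fl replicate 2.

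Signalling proteins inside the cell gave single calls spread over several lists. Pde2a, a phosphodiesterase that degrades cyclic nucleotides, was the 1 called of 50 genes of cyclic nucleotide and Epac-Rap signalling and stood at 342 and 129 against 20.3 and 25 CPM (log2 fold change -3.38, SE 0.450). Its relative Pde9a had 7.71 and 2.35 CPM in control and 0 in both deficient libraries, yet an adjusted p in edgeR of 0.0517. Akap12, an anchor of protein kinase A, was at 106 and 42.2 against 15.6 and 14.8 CPM (0.0627 in edgeR). Of 16 cytokine signal inhibitors and Tribbles genes, Trib2, a pseudokinase, was lower, at 3.76 and 2.77 against 0.621 and 0.451 CPM. Irak3, an inhibitor of Toll-like receptor signalling, was the 1 lower gene of 29 in its list, at 6.28 and 3.44 against 0.870 and 0.644 CPM.

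The adaptors Grb7 and Gab1 were the 2 called of 41 receptor tyrosine kinases and adaptors. Grb7 fell from 13.2 and 5.00 to 0.497 and 0.515 CPM (-4.15, SE 0.571) and Gab1 from 3.69 and 2.59 to 0.373 and 0.708 CPM (-2.53, SE 0.411). Als2cl, which resembles guanine nucleotide exchange factors, was lower at 17.6 and 10.2 against 1.99 and 1.35 CPM and so was the Cdc42 activator Dock9 at 30.8 and 15.3 against 5.22 and 4.96 CPM. Ankrd6, the 1 call of 36 Wnt pathway genes and known as Diversin, stood at 13.7 and 5.24 against 0.124 and 0.258 CPM (-5.59, SE 0.681), while Fzd6, a Wnt receptor, was at 8.94 and 6.33 against 2.86 and 2.51 CPM and did not pass (adjusted p in edgeR 0.0521).

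Outside these lists, Sh3bp5, a protein that binds the kinase Btk, fell by 2.57 on the log2 scale (SE 0.388) and Rgs8, a brake on G protein signalling, fell by 4.73 (SE 0.682). The kinase Camk2b fell by 2.01 (SE 0.329), the focal adhesion protein Parvb fell by 2.75 (SE 0.444) and the gene Ripor1 fell by 0.55 (SE 0.0896). The genotypes did not overlap for these 5 genes, as for all 113 called genes. Taking the 13 signalling genes from Pde2a to Ripor1, 11 were called in the fixed-gene fit without Erg fl/fl replicate 1, 13 without Erg fl/fl replicate 2 and 0 without Rag1Cre;Erg-deficient replicate 1 or replicate 2. After the minimum was reapplied 10 could be tested without a control library, of which 8 were called without Erg fl/fl replicate 1 and 10 without Erg fl/fl replicate 2.

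Enzymes and transporters of metabolism were also among the lower genes, as single members of larger lists. Of 37 genes of lipid synthesis and uptake, 1 was lower and 1 higher, with a list median of 0.06. Scd1, the desaturase that makes monounsaturated fatty acids, fell from 9.07 and 5.49 to 0.124 and 0.451 CPM (log2 fold change -4.64, SE 0.509). Of 42 nucleotide and amino acid enzymes 3 were called, all lower, with a list median of -0.08. Impdh1, which commits inosine monophosphate to guanine nucleotides, fell from 122 and 53.0 to 13.7 and 17.2 CPM, and Gmpr, which converts GMP back, from 7.13 and 3.56 to 0.559 and 0.773 CPM. Both enzymes, of this step and of the way back, were therefore lower. The third, Bcat1, the cytosolic transaminase of branched-chain amino acids, fell from 11.5 and 4.70 to 0.311 and 0.193 CPM (-4.96, SE 0.610).

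Of 193 solute carriers 2 were called, both lower, with a list median of 0.00. That count is close to the 0.659% of all tested genes that were called lower. Slc16a1, the lactate and pyruvate transporter MCT1, fell from 27.0 and 15 to 5.16 and 5.67 CPM (-1.96, SE 0.289), and Slc5a9, a sugar transporter, from 78 counts to 0, at least 25.7-fold lower. Steap4, a metalloreductase, fell from 26.7 and 9.53 to 0.994 and 0.580 CPM, the aminoacylase Acy3 from 3.30 and 1.69 to 0.249 and 0.0644 CPM and Csgalnact1, an enzyme of chondroitin sulfate synthesis, from 8.36 and 2.53 to 0.186 and 0.0644 CPM. All 9 called metabolic genes that fell stayed called in the fixed-gene fits without either control library, and 0 did without Rag1Cre;Erg-deficient replicate 1 or replicate 2. Only 4 of the 9 could be tested without a control library once the minimum was reapplied, and these 4 were called.

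Genes of the extracellular matrix, secretion and the cytoskeleton came next. Of 48 matrix genes and their proteases, 4 were lower and 1 higher, with a list median of -0.05. Mmrn1, a multimerin known from platelets and endothelium, had 762 counts in control and 1 in deficient cells, or 39.1 and 9.53 against 0.0621 and 0 CPM, a ratio of 752 (135 to 29760). Its control libraries differed 4.11-fold, the widest gap among the lower genes. The collagens Col27a1 and Col5a3 fell from 23.6 and 7.42 to 0.373 and 0.386 CPM and from 2.20 and 1.87 to 0.186 and 0.322 CPM. Nid1, a basement membrane protein, had 45 counts against 0, at least 14.8-fold lower. The procollagen protease Adamts14 was the 1 that rose, from 0.648 and 1.45 to 5.28 and 7.73 CPM (log2 fold change 2.61, SE 0.395).

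Of 46 genes of exocytosis and the synaptic vesicle 2 were lower. Cplx2, a complexin that clamps SNARE complexes before vesicle fusion, stood at 176 and 59.4 CPM in control and at 0.497 and 0.901 CPM in deficient cells (-7.39, SE 0.768, adjusted p in edgeR 0.0178). Sytl4, a Rab27 effector on secretory granules, was at 3.56 and 2.53 against 0.559 and 0.451 CPM, while Rab27a itself was at 88.9 and 99.2 against 102 and 110 CPM (0.454 in edgeR). Of 59 genes of motile cilia and axonemes, Rsph1, a radial spoke head protein, had 135 counts in control and 3 in deficient cells, a ratio of 44.4 (14.9 to 218), and Ttll11, a tubulin polyglutamylase, fell from 7.71 and 3.32 to 0.0621 and 0.193 CPM.

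Smtnl2, a smoothelin-like protein, had 760 counts against 1, a ratio of 750 (134 to 29682). Myl10, a myosin light chain made in precursor lymphocytes, fell from 7.64 and 5.85 to 1.55 and 1.35 CPM (-2.21, SE 0.263), and Epb41l4b, a FERM domain protein, from 42.9 and 29.3 to 12.4 and 13.1 CPM (-1.51, SE 0.185). The surface carboxypeptidase M, gene Cpm, fell from 8.94 and 4.16 to 0.559 and 0.193 CPM (-4.09, SE 0.573). The 11 lower genes of the matrix, secretion, cilium and cytoskeleton together with Cpm were 12 in all; 12 stayed called in the fixed-gene fits without either control library and 0 without Rag1Cre;Erg-deficient replicate 1 or replicate 2. With the minimum reapplied, 5 could be tested without a control library, of which 4 were called without Erg fl/fl replicate 1 and 5 without Erg fl/fl replicate 2.

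A further 6 lower genes have little described function. D030045P18Rik and Tmem255a had 85 and 173 counts in control and none in deficient cells, at least 28.0-fold and at least 56.9-fold lower. A630023P12Rik, 1700027J07Rik and Sertad4 had 1 count each in the deficient libraries against 345, 383 and 252 in the controls, and Pcp4l1 had 2 against 293. The gene Sertad4 thus differed by a ratio of 249 (44.3 to 9868) and Pcp4l1 by 145 (39.7 to 1200). None of the 6 could be tested without a control library once the minimum was reapplied. The fixed-gene fits called 6 without either control library and 0 without Rag1Cre;Erg-deficient replicate 1 or replicate 2.

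Of the 15 tested myeloid markers 3 were called, all lower, and each encodes a protein of neutrophil granules or cytosol. Ngp, the neutrophilic granule protein, stood at 15.5 and 8.20 CPM in control and at 2.30 and 2.45 CPM in deficient cells (log2 fold change -2.32, SE 0.336). Ltf, lactoferrin, was at 10.5 and 4.70 against 0.994 and 0.966 CPM (-2.95, SE 0.448), and S100a9, a subunit of calprotectin, at 35.8 and 17.0 against 5.03 and 5.60 CPM (-2.31, SE 0.353). Its partner S100a8 was at 29.1 and 9.83 against 3.23 and 3.86 CPM without passing (adjusted p in edgeR 0.0845). The list median was -0.45 and 8 of the 15 had an unadjusted p below 0.05 in edgeR. Of the other granule genes, Mpo was at 58.0 and 69.8 against 61.5 and 40.5 CPM. Elane was at 5.57 and 6.69 against 5.41 and 4.89 CPM, and neither was called. The whole myeloid list summed to 506 and 465 CPM in control and to 419 and 404 CPM in deficient libraries. Its largest term, Cd68, lay the other way at 242 and 256 against 264 and 283 CPM. Ly6g, the neutrophil surface marker, had 7 and 2 counts in control and 0 and 1 in deficient libraries. S100a9 also differed between the control proB libraries, at 52.1 and 144 CPM. The 3 genes stayed called without either control library, and 0 did without Rag1Cre;Erg-deficient replicate 1 or replicate 2. The part of neutrophil RNA in these libraries was not tested.

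**Figure D4:**
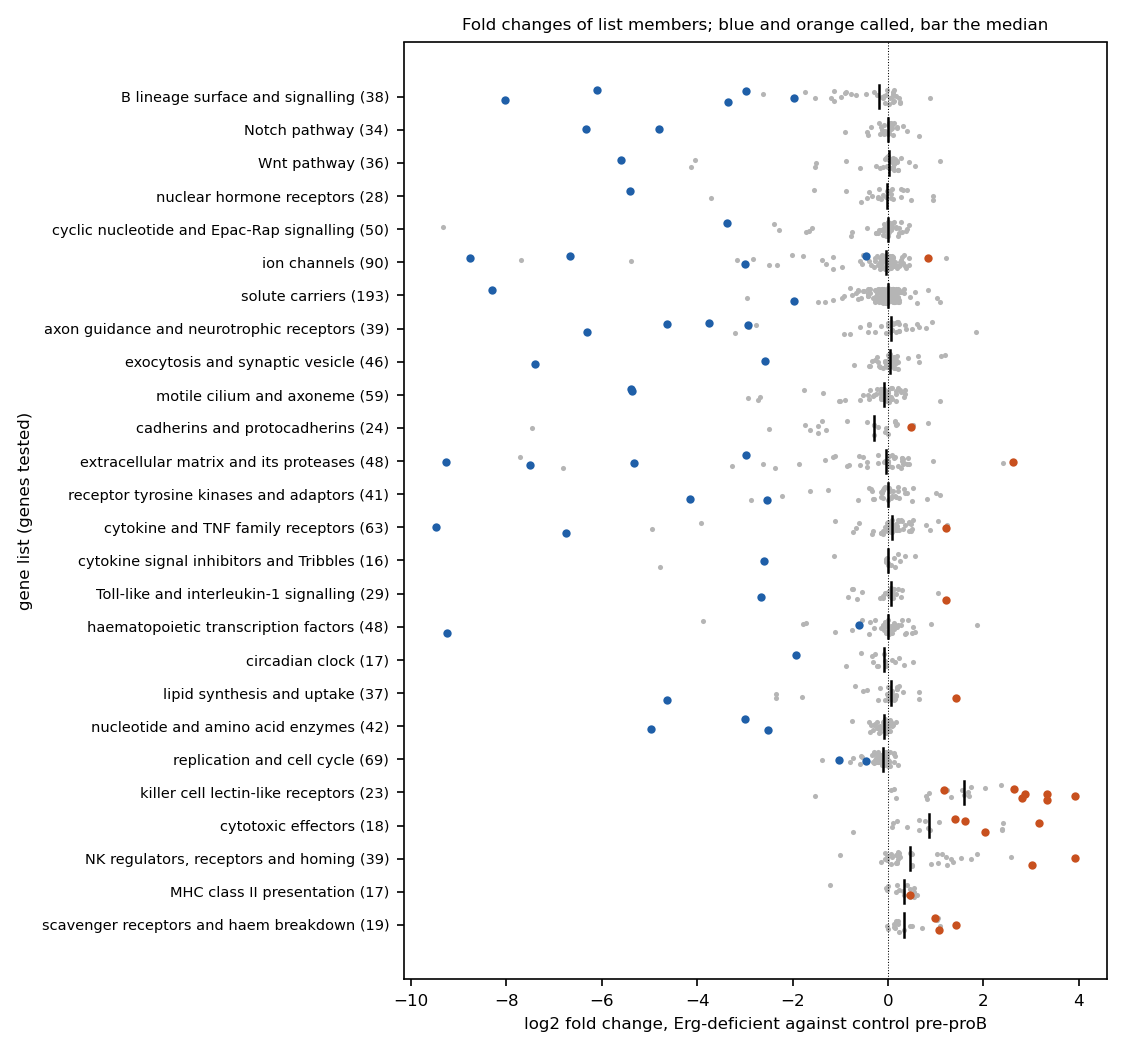
Log2 fold change between deficient and control pre-proB cells (x axis) for each tested member of the function lists with at least 1 call that are described (rows, number tested in brackets), called lower genes in blue, called higher genes in orange, others in grey, and the list median as a black bar. The medians of most lists lie near 0, that of all genes being 0.01, and those of the killer cell lectin-like receptors and the cytotoxic effectors lie at 1.60 and 0.85.

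The genes that rose were led in number by those of natural killer cells. Of 23 tested killer cell lectin-like receptors, the activating and inhibitory surface receptors by which NK cells read MHC class I and related ligands, 7 were called, all higher, against 0.217% of all genes. The list median was 1.60 against 0.01 over all genes. Klra4 stood at 0.907 and 1.57 CPM in control and at 10.6 and 14.9 CPM in deficient cells (log2 fold change 3.34, SE 0.307, adjusted p in edgeR 0.0178). Klra8, the Ly49H receptor, rose from 1.62 and 2.89 to 11.9 and 20 CPM (2.81, SE 0.346), and Klrk1, the activating receptor NKG2D, from 18.4 and 23.6 to 41.1 and 53.8 CPM (1.17, SE 0.160). In each case both deficient libraries lay above both controls, replicate 2 above replicate 1.

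The others were Klrb1a, at 0.518 and 0.543 against 2.67 and 4.12 CPM, Klrb1b, at 0.259 and 0.241 against 1.99 and 3.22 CPM, and the pseudogenes Klra13-ps and Klra14-ps, at 2.14 and 3.38 against 14.4 and 26.6 CPM and at 0.324 and 0.301 against 3.67 and 6.05 CPM. The 7 called genes lie on chromosome 6 between 128609227 and 130306432 (GRCm38), a span of 1.70 Mb that is the NK gene complex. Members of the Klra and Klrb1 families are close copies of each other, so reads may be shared among them and the level of a single Klra gene or pseudogene is uncertain. Klrb1c, which encodes NK1.1, the antigen excluded in the sort, was at 11.2 and 7.72 against 20.7 and 34.8 CPM (adjusted p in edgeR 0.0635). Klri2 was just outside the threshold at 11.7 and 11.8 against 21.7 and 33.4 CPM (0.0513 in edgeR). All 7 called receptors were called in the fixed-gene fits without either control library, 3 without Rag1Cre;Erg-deficient replicate 1 and 0 without Rag1Cre;Erg-deficient replicate 2. Reapplying the minimum gave 6 calls without Erg fl/fl replicate 1, 7 without Erg fl/fl replicate 2 and, of 5 that could be tested without a deficient library, 1 without replicate 1 and 0 without replicate 2.

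Cytotoxic effectors gave 4 calls among 18 tested genes, all higher, against 0.217% of all genes, with a list median of 0.85. Prf1, perforin, the pore former of cytotoxic granules, rose from 2.20 and 2.41 to 7.89 and 11.2 CPM (log2 fold change 2.04, SE 0.246). Gzma, granzyme A, rose from 1.81 and 4.16 to 18 and 36.6 CPM (3.17, SE 0.444), the chemokine Ccl5 from 12.6 and 18.6 to 34.6 and 48.8 CPM (1.41, SE 0.217) and the granule membrane protein Nkg7 from 6.09 and 8.74 to 17.5 and 27.9 CPM (1.61, SE 0.263). Gzmb, granzyme B, lay the same way at 0.518 and 0.784 against 2.30 and 4.83 CPM without passing (adjusted p in edgeR 0.0764). Deficient replicate 2 held more Gzma than deficient replicate 1, with a ratio of replicate 1 to replicate 2 of 0.492.

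Among 39 NK regulators, receptors and homing genes 2 were called, both higher, with a list median of 0.46. Ncr1, the natural cytotoxicity receptor NKp46, rose from 2.14 and 2.89 to 15 and 25.9 CPM (log2 fold change 3.01, SE 0.312), and Styk1, a receptor kinase-like protein made in NK cells, from 0.0648 and 0.301 to 2.11 and 3.73 CPM (3.91, SE 0.604). Il18r1, the interleukin-18 receptor that primes NK cells, rose from 10.8 and 14.8 to 29.0 and 31.0 CPM (1.22, SE 0.151). Its co-receptor Il18rap was at 6.87 and 8.62 against 14.4 and 17.6 CPM (adjusted p in edgeR 0.0527), and Il2rb, the shared chain of the receptors for interleukin-2 and its relative interleukin-15, at 21.7 and 31.1 against 51.0 and 74.4 CPM (0.0573 in edgeR). The T-box factors that govern NK cells were at 5.05 and 5.18 against 9.63 and 19.9 CPM for Eomes and 1.75 and 3.44 against 4.04 and 6.76 CPM for Tbx21 (0.102 and 0.342 in edgeR). The 7 called cytotoxic and NK genes, Il18r1 included, stayed called in the fixed-gene fits without either control library, 1 did without Rag1Cre;Erg-deficient replicate 1 and 0 without Rag1Cre;Erg-deficient replicate 2. With the minimum reapplied, 5 were called without Erg fl/fl replicate 1 and 7 without Erg fl/fl replicate 2, and of 6 that could be tested without a deficient library 1 was called without replicate 1 and 0 without replicate 2.

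Over the list of 19 NK cell markers, 10 were called higher, against 0.217% of all genes, and 0 lower. None was at 0 in either genotype. Their summed level was 255 and 275 CPM in control and 395 and 592 CPM in deficient libraries. The largest single term, Klrd1 (CD94), was at 176 and 172 CPM in control and 163 and 219 CPM in deficient cells, so the remaining 18 markers carried the difference. Of 14 T cell markers 0 were called by edgeR or DESeq2, and 3 had an unadjusted p below 0.05. They summed to 817 and 979 CPM in control and to 1657 and 1013 CPM in deficient libraries, most of it Cd4, the T cell co-receptor, at 478 and 609 against 1207 and 622 CPM (log2 fold change 0.75, SE 0.285, adjusted p in edgeR 0.355). The co-receptor chain Cd8a was at 113 and 120 against 184 and 126 CPM and the adaptor Lat at 20.1 and 15 against 11 and 14.4 CPM, whereas Cd3e, a chain of the T cell receptor complex, was at 4.99 and 6.45 against 4.97 and 4.83 CPM. Since Cd4 made most of the sum, the sum does not describe the other members of the list. Of 7 tested innate lymphoid markers 0 were called by edgeR, 1 was called by DESeq2 and 2 had an unadjusted p below 0.05. Those 2 were Gata3, whose values are given above, and Id2, a partner that holds E proteins off DNA, at 12 and 15.3 against 19.6 and 31.4 CPM (0.90, SE 0.232, adjusted p in edgeR 0.158). The genotypes did not overlap for either, but 23.5% of all tested genes lay wholly higher in this way. Il5, Il13, Il22 and Areg were at 0 counts in all 4 libraries. The single T cell receptor segment among the higher genes, Trbj1-1, was at 0.130 and 0.121 against 1.12 and 1.48 CPM. Of the other marker lists, 0 of 2 mast cell and basophil, 0 of 7 erythroid and 0 of 8 plasma cell markers were called, 1 of 6 megakaryocyte markers (Mmrn1) and 2 of 11 mature B markers (Ms4a1 and Cxcr5) were lower and 1 of 7 stromal markers (Cdh5) was higher. In proB and preB libraries of control mice most NK markers were nearly absent, with Klra4 between 0.0550 and 0.115 CPM and Ncr1 between 0.0550 and 0.402 CPM. Whether NK cells or NK-like cells inside the gate had a part in these values was not tested.

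**Figure D5:**
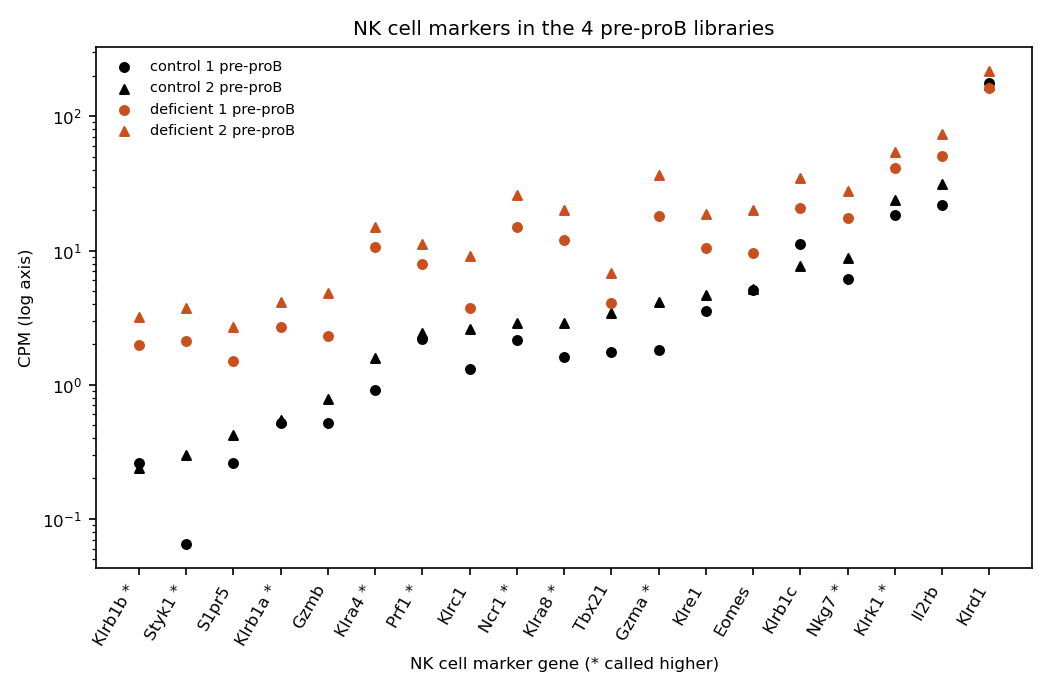
Level of the 19 NK cell markers (x axis, asterisks for the 10 called higher) in CPM on a logarithmic axis, with control libraries in black and deficient libraries in orange, circles for replicate 1 and triangles for replicate 2. Deficient replicate 2 lies above replicate 1 for every marker, and Klrd1, the most abundant, has overlapping genotypes at 163 to 219 CPM.

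The remaining higher genes were of mixed function. Lrp1, a scavenger receptor that takes up lipoproteins and protease complexes, rose from 18 and 18.1 to 47.2 and 50.7 CPM (log2 fold change 1.43, SE 0.0768, adjusted p in edgeR 0.00296). It had the lowest p of all non-immunoglobulin genes and was the 1 gene of the 113 that passed the threshold in all 18 alternative analyses, with an adjusted p of at most 0.0328. Rnaset2a and Rnaset2b, near-identical copies of a lysosomal ribonuclease whose reads cannot be told apart, were each about 2 times as high, going from 11.9 and 12.8 to 21.9 and 27.3 CPM and from 11.5 and 13.3 to 22.4 and 29.4 CPM. With Lrp1 they made 3 calls among the 19 genes listed under scavenger receptors and haem breakdown, whose median was 0.34. The 2 copies may be 1 signal counted 2 times, and Lrp1 was the only other call of the list. Hmox1, the haem oxygenase, lay the same way at 8.23 and 5.97 against 16.7 and 12.7 CPM (0.0845 in edgeR).

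A further set rose by less than 2-fold and was tightly measured. Scn3a is given above, and Pir, an iron-binding nuclear protein, went from 34.3 and 33.9 to 48.1 and 48.0 CPM (log2 fold change 0.49, SE 0.0666). Cdh5, the adhesion molecule VE-cadherin, went from 150 and 165 to 226 and 215 CPM (0.48, SE 0.0720), and H2-DMb1, a chaperone of MHC class II peptide loading, from 101 and 111 to 151 and 145 CPM (0.47, SE 0.0711). These genes were low in the later stages of control mice, Scn3a at 0 to 0.330 CPM, Pir at 0.112 to 0.785 CPM, Cdh5 at 3.19 to 4.45 CPM and H2-DMb1 at 6.16 to 11.4 CPM. Cdh5 was the 1 call of 24 cadherins and protocadherins, whose median was -0.29, and H2-DMb1 the 1 call of 17 MHC class II genes, whose median was 0.33. The class II chains themselves lay the same way without passing, H2-Aa at 928 and 1036 against 1560 and 1330 CPM and H2-Ab1 at 554 and 616 against 987 and 808 CPM (0.0683 and 0.0635 in edgeR), and H2-Ob, an inhibitor of peptide loading made in B cells, lay the other way at 91.9 and 54.8 against 29.9 and 33.4 CPM (0.0721 in edgeR).

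Scand1, a SCAN domain protein, rose from 23.4 and 25.9 to 49.8 and 55.4 CPM (log2 fold change 1.09, SE 0.0889). Rpl13, a ribosomal protein with many processed copies in the genome, was at 102 and 113 against 164 and 189 CPM, and the ubiquitin pseudogene Ubb-ps at 0.972 and 0.965 against 3.85 and 4.31 CPM. Rpl13 and Ubb-ps share sequence with other genes, and their values are uncertain for that reason, Ubb-ps also ranging from 0.732 to 6.93 CPM between the 2 control proB libraries. Of the 12 higher genes outside the NK sets, 9 were called in the fixed-gene fit without Erg fl/fl replicate 1, 12 without Erg fl/fl replicate 2, 2 without Rag1Cre;Erg-deficient replicate 1 and 1, Lrp1, without Rag1Cre;Erg-deficient replicate 2.

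In 4 of the 31 function lists 0 genes were called by edgeR, which does not show that they were alike. These were 20 integrins (7 at an unadjusted p below 0.05, and 1 called by DESeq2), 55 chromatin remodellers and deacetylases (8 and 2), 24 genes of MHC class I presentation (6 and 0) and 25 AP-1 and immediate early genes (13 and 1). Among the last, Egr1 was at 6.35 and 4.52 against 2.80 and 1.87 CPM and Jund at 55.9 and 54.1 against 73.4 and 68.6 CPM (adjusted p in edgeR 0.140 and 0.0753). Smarca4, the BRG1 ATPase, was at 624 and 402 against 298 and 279 CPM (0.108 in edgeR). The collagen-binding integrin Itga2, an NK cell antigen known as CD49b, was at 0.324 and 0.965 against 2.73 and 4.44 CPM (0.0845 in edgeR).

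The later stages of the control mice allow the levels of the called genes to be set beside those of proB and preB cells. Every 1 of the 85 lower genes had a mean of at least 1 CPM in proB cells, the median being 57.7 CPM in proB and 46.5 CPM in preB cells. For 26 of the 85 both preB libraries lay above both proB libraries, and for 55 the order was the reverse. Reln, at 32.5 and 24.2 CPM in proB cells and 247 and 223 CPM in preB cells, Col5a3, at 70.5 and 61.4 then 513 and 474 CPM, Cpm, at 166 and 148 then 438 and 416 CPM, and Scd1, at 108 and 108 then 272 and 293 CPM, were among those higher in preB cells. Those higher in proB cells included Heyl, at 22.6 and 17.8 then 6.21 and 9.91 CPM, Pgr, at 3.47 and 4.86 then 0.345 and 0.784 CPM, Gfra2, at 192 and 189 then 34.0 and 40.3 CPM, and Bcat1, at 82.9 and 89.5 then 20.7 and 21.8 CPM. The called lower genes therefore did not share 1 course between the stages. Of the 28 higher genes, 14 were under 1 CPM on average in both proB and preB cells, with medians of 0.712 and 0.569 CPM. The shares of all tested genes with these levels or orders were not computed, so these counts describe the called genes alone.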

How the data were processed

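RNA of sorted pre-proB, proB and preB cells was sequenced as 100 bp paired-end reads, with 2 libraries for each group. Per the study's methods, the cells were sorted independently from 2 mice of each genotype. The authors removed adapters with Trim Galore, aligned to mm10 with STAR and deposited whole-number counts per gene from featureCounts, without normalization. CASAVA 1.8.2 made the reads, per the submitters' processing notes. Strandedness and the handling of multi-mapped reads were not stated in the sources used here. Thus overlapping, antisense and near-identical genes can share reads. Symbols came from RefSeq (GRCm38.p6) for 25275 of 27179 identifiers and from GENCODE for 18. The 1886 others held 0.571% of the counts.

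The 13005 genes, immunoglobulin genes included, that reached 0.5 CPM in 2 or more pre-proB libraries were fitted with edgeR 4.0.16 in R 4.3.3 (TMM, quasi-likelihood F-test, limma 3.58.1), with 2 residual and 4.72 prior degrees of freedom, a BCV of 9.02% and Benjamini-Hochberg adjustment over all of them. Printed CPM use TMM factors over the 8 libraries. On simulated counts the test called 183 of 200 changed and 17 unchanged of 12869 genes. The simulation gave each gene the same spread in both genotypes. It cannot show how the test fares where the controls differ more than the deficient libraries. An exact permutation test of 2 against 2 cannot go below p = 0.33 and was not used. Replicates differed by more than sampling noise (chi-square per degree of freedom 7.59 and 8.77). Genes named in the text are Erg, the 15 lower and 15 higher genes with the lowest p (with symbol, not named by the study, genotypes not overlapping), and called and best-known members of the lists. For a group without a count, 3 counts over both libraries set the limit. Intervals are exact, at 95%, and cover counting error only. Alternatives comprised DESeq2 1.42.0 (as test and as size factors), limma-voom, robust estimation, other filters, all 8 libraries, a replicate block and leaving out each library. The members, lists and groups were chosen with earlier results of these data known, among them a supplementary gene table made from these libraries. Some genes and 1 gene list are not reported here. Figures were drawn with matplotlib.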

Additional observations from a re-analysis of the deposited data

How the results depend on the processing

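Of the 113 genes called in the quasi-likelihood test of edgeR (85 lower, 28 higher), 0 changed the sign of the fold change in any of 18 alternatives, but the number past the threshold varied widely. It was 227 (174 lower, 53 higher) with no filter on low counts, 340 (253 and 87) with DESeq2, 17 (10 and 7) with limma-voom, 76 (46 and 30) with robust estimation and 379 (308 and 71) when all 8 libraries shared 1 estimate of the spread. DESeq2 size factors, filterByExpr, a minimum of 1 CPM and the removal of immunoglobulin genes before the fit gave between 100 and 116 calls. Of the 113 genes, 110 were called by DESeq2, 109 with all 8 libraries, 53 with robust estimation and 10 with limma-voom. The cause was not tested.

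Without 1 library the count ranged from 2 to 387 (1 to 317 lower, 1 to 70 higher). It was 97 without Erg fl/fl replicate 1, 387 without Erg fl/fl replicate 2, 9 without Rag1Cre;Erg-deficient replicate 1 and 2 without Rag1Cre;Erg-deficient replicate 2. In each fit without a control library 40 of the 113 genes no longer reached the CPM minimum in 2 libraries and were not tested. Fits that held the genes fixed were therefore added after seeing the data. They gave 176 calls (144 and 32) without Erg fl/fl replicate 1, 537 (457 and 80) without Erg fl/fl replicate 2, 11 (1 and 10) without Rag1Cre;Erg-deficient replicate 1 and 3 (2 and 1) without Rag1Cre;Erg-deficient replicate 2, of which 104, 112, 6 and 1 were among the 113. In these fits the lone library of a genotype is assumed to vary like the pair of the other.

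With the replicate number as a block 205 genes were called (158 lower, 47 higher), 104 of them among the 113. The numbers share no stated origin, and the deviations of equally numbered libraries correlated at 0.0102 over 13005 genes, so the block is not used beside any result. At 3 counts, or 0.181 to 0.194 CPM, the depth sets the lower limit, and 19 of the 85 lower genes had at most 3 counts over both deficient libraries.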
